A study of Homo sapiens with 4 samples.

Results

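The H3K27ac loops at 7 genes for interferon regulatory factors, IRF2, IRF3, IRF4, IRF5, IRF7, IRF8 and IRF9, were compared between melanoma cells with and without STAG2 knockdown. These are 7 of 19222 protein-coding genes on chromosomes 1 to 22, chosen by name, and IRF1 is outside the set. A loop was assigned to a gene when an annotated transcript start of that gene lay inside a 5 kb anchor of the loop. By this rule 16 loops of the WT list (27289 in all) and 18 of the STAG2-KD list (25621 in all) belonged to the 7 genes. IRF2, IRF3, IRF7 and IRF9 had loops at their starts in both lists. IRF4, IRF5 and IRF8 had none in either list. Over all protein-coding genes, 39.1% had a loop at a start in WT, 36.8% in STAG2-KD and 44.5% in either list.

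The cells were M14, an established line of human melanoma, with a short hairpin RNA that targets STAG2 when doxycycline is given. STAG2 is a cohesin subunit. Both groups carried this construct and both were cultured for 5 days. Cells with doxycycline formed the STAG2-KD group, and cells without it formed the WT group, so the agent and the knockdown cannot be told apart. HiChIP ligates DNA that is close in the nucleus and then pulls down the ligated fragments with an antibody. The antibody used here recognises acetylation of lysine 27 on histone H3 (H3K27ac), which marks promoters and enhancers in use. The labels named 4 samples, 2 per group, and 1 loop list per group was analysed. Each list was deposited under replicate 1 of its group. No source states whether a list merges both replicates. Each list gives only the positions of its loops, so the read depth is unknown and a difference between the lists has no replicate check and no p-value. The binomial intervals given below cover counting error only, and loops at 1 start share an anchor and are not independent. STAG2 lies on chromosome X, for which the lists hold no loops, so the knockdown could not be checked in them. Of 7 melanocyte lineage genes, 6 had a loop at a start in WT and 5 in STAG2-KD, with TYR at 0 in both, while 1 of 2 keratinocyte genes and 2 of 4 immune genes had a loop in each list.

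Interferon regulatory factors share a DNA-binding domain that reads the GAAA repeats of interferon-stimulated response elements. IRF3 and IRF7 are activated by the sensors of foreign nucleic acids and switch on type I interferon genes. IRF9 acts after the interferon receptor, where it binds STAT2 within the ISGF3 complex, and IRF2 competes with IRF1 for the same elements and limits the response. IRF5 and IRF8 work mainly in myeloid and lymphoid cells, whereas IRF4 works in lymphocytes and also in melanocytes together with MITF.

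The 4 genes with loops did not all differ in 1 direction. IRF2 had 11 WT loops and 7 STAG2-KD loops, and 6 were shared, meaning that they had the same bins at both anchors. IRF3 had 1 WT loop and 4 STAG2-KD loops, with 1 shared. IRF7 had 2 and 3, with 0 shared. IRF9 had 2 and 4, with 1 shared. IRF2 was therefore the member with more loops in WT, and the other 3 had more in STAG2-KD.

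**Figure D1:**
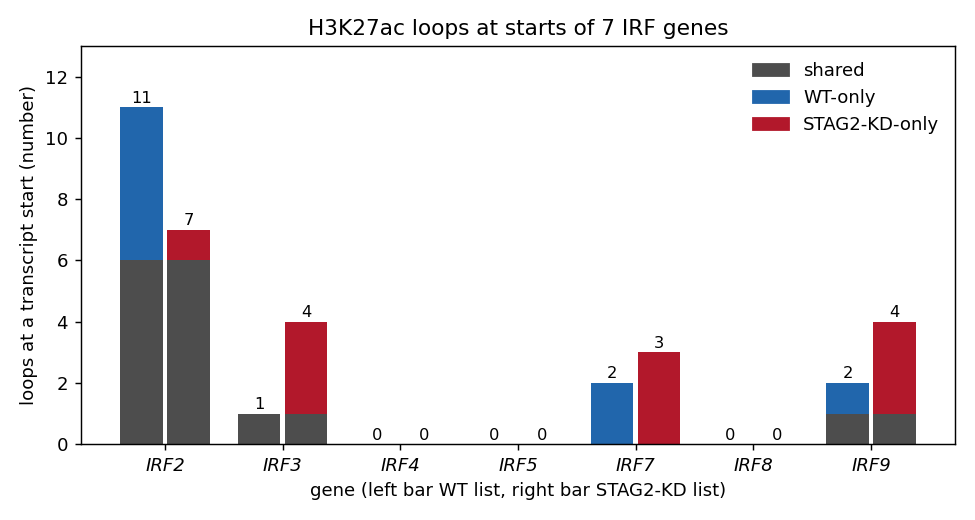
Number of loops at a transcript start of each of the 7 genes, with the left bar for the WT list and the right bar for the STAG2-KD list, divided into shared loops and loops of 1 list only. IRF2 had 11 loops in WT against 7, IRF3, IRF7 and IRF9 had 4, 3 and 4 in STAG2-KD against 1, 2 and 2, and IRF4, IRF5 and IRF8 had 0.

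These differences were set beside all 8563 protein-coding genes with a loop in either list. More loops in STAG2-KD were found for 34.4% of those genes, more loops in WT for 43.5% and equal numbers for 22.1%. IRF7, with 1 more loop in STAG2-KD, belonged to the 34.4%, which also include genes with larger differences. At least 2 more loops in STAG2-KD, as at IRF9, were found for 14.1%, and at least 3 more, as at IRF3, for 6.26%. At least 4 more loops in WT, as at IRF2, were found for 3.59%. In the number of loops itself, IRF3 had the smallest WT count a gene with a WT loop can have, so 87.7% of the genes had at least as many in WT and 25.5% had at least its 4 in STAG2-KD. For IRF7 these percentages were 57.6% and 36.6%, and for IRF9 they were 57.6% and 25.5%. The same 3 numbers as at IRF9 occurred at 52 other genes and the same as at IRF3 at 34, against 42 for IRF7 and 3 for IRF2. The genes with such numbers nearest to a member were NEDD8, within 1 Mb of IRF9, and PRRG2, within 1 Mb of IRF3, and both have a start in an anchor described below.

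**Figure D2:**
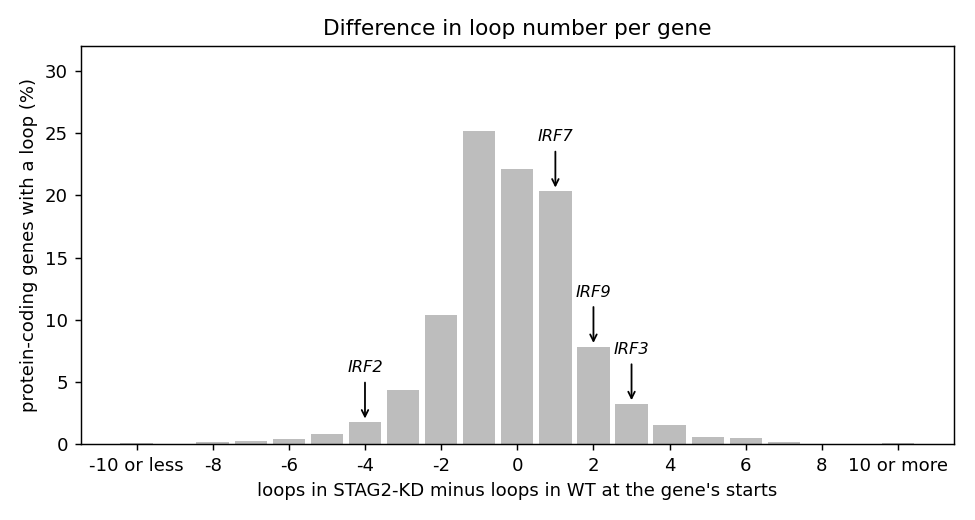
Percentage of the 8563 protein-coding genes with a loop, by the number of loops in STAG2-KD minus the number in WT, with arrows at the 4 members that have loops. IRF7 lay in a common class, whereas IRF3 at 3 and IRF2 at -4 lay where the bars are low, next to the 6.26% of genes with at least 3 more loops in STAG2-KD and the 3.59% with at least 4 more in WT.

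IRF9 was examined first, because it is the gene on which the study concentrated. The study took IRF9 from genes that met several criteria, including a changed H3K27ac loop after knockdown in these cells. A loop difference at IRF9 is therefore not independent of how the study chose the gene. All 70 annotated transcripts of IRF9 (ENSG00000213928, chromosome 14, 24630443 to 24637252, plus strand, hg19) begin in the same bin, 24630001 to 24635000. The loops on either side of this start differed between the lists. In WT both partners lay upstream, at 20 kb and 50 kb. In STAG2-KD the 20 kb partner was kept and the other 3 partners lay downstream, at 25, 50 and 76 kb. The kept partner holds the starts of EMC9, which encodes a part of an endoplasmic reticulum membrane complex, and PSME2, which encodes a proteasome activator subunit induced by interferon gamma, and it carried 2 loops in each list. All partners of IRF9 had a protein-coding start.

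The DNA just before the IRF9 start holds a match to 2 of the motifs searched. The 25 bases below lie on the plus strand at chr14:24630399-24630423 (GRCh37), from -75 to -51 relative to the RefSeq start, and come from a RefSeq promoter entry of GRCh38.p14 that matched GRCh37 exactly. The first capitals mark an E-box, CACGTG, at 24630403 to 24630408, and the second mark a GAS core, TTCNNNGAA, at 24630411 to 24630419, the palindrome read by STAT dimers.
IRF9 promoter: agacCACGTGatTTCTGGGAAaagg
Of 35116 promoter windows in the RefSeq table, 7.66% hold a GAS core, 7.26% hold the E-box and 8.11% hold the ISRE core GAAANNGAA, each searched on both strands. The IRF9 window holds no ISRE core. Among the other members with an entry, IRF4, IRF5 and IRF8, a single motif was found, an ISRE core on the minus strand of an IRF5 window at chr7:128581318-128581326, across the start from -4 to 5, which reads TTCTGTTTC on the plus strand. These are letters of the reference, and binding was not measured.

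The WT-only partner of IRF9 was the bin 24580001 to 24585000, at the starts of DCAF11, a substrate receptor of a ubiquitin ligase, and NRL, a photoreceptor transcription factor. This anchor had 6 WT loops and 2 STAG2-KD loops. At least 4 fewer loops in STAG2-KD were found at 2.77% of the 30601 anchors of either list. Its loop to IRF9 was therefore among several that the STAG2-KD list did not hold. The loops of the DCAF11 anchor to TINF2 (130 kb), to DHRS1 and NOP9 (185 kb), to CARMIL3 (55 kb) and to the bin 24505001 to 24510000 (75 kb) were WT-only as well.

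Of the STAG2-KD-only partners on the 5 kb grid, the nearer was the bin 24655001 to 24660000 at 25 kb, with a start of the importin gene IPO4, which had 1 loop in each list. In WT the loop of that anchor ran 45 kb across IRF9 to EMC9 and PSME2. The STAG2-KD list also held a loop across IRF9 from EMC9 and PSME2. It ran 50 kb to the next bin, 24660001 to 24665000, with a start of TM9SF1. The farther was the bin 24680001 to 24685000 at 50 kb, with starts of CHMP4A, which encodes a membrane-remodelling protein, and MDP1, which encodes a phosphatase. It had 2 WT loops and 3 STAG2-KD loops.

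The loop at 76 kb was the only line of either list off the 5 kb grid. It runs from 24628001 to 24709000, and its edges lie 3000 and 4000 bases past grid lines. The on-grid STAG2-KD-only loop of IRF9 at 50 kb stood at 99.6% of the chromosome 14 lines. The off-grid line stood among the other chromosome 14 loops, as line 123 of 446, and not at the end of the list. Read with anchors of 5 kb, its left anchor (24628001 to 24633000) holds starts of IRF9 and of RNF31, which encodes the catalytic subunit of the linear ubiquitin ligase, and its right anchor (24704001 to 24709000) holds a start of GMPR2, which encodes a GMP reductase. Neither list held a loop that came within 2 bins of both of its anchors. With the line left out, IRF9 had 3 loops in STAG2-KD, a difference of 1 loop. At least 1 more loop in STAG2-KD was found for 34.4% of genes with a loop. How the line came to be off the grid was not tested.

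The right anchor of that line overlaps the end of a grid anchor at GMPR2 and stops before one at TINF2, and the loops of these grid anchors differed in opposite directions. The bin 24700001 to 24705000, with starts of GMPR2 and of NEDD8, a ubiquitin-like modifier, had 1 WT loop and 4 STAG2-KD loops, and at least 3 more loops in STAG2-KD were found at 4.75% of anchors. The bin 24710001 to 24715000, with a start of the shelterin gene TINF2, had 5 WT loops and 1 STAG2-KD loop. Several partners were common to both bins. DCAF11 was joined to the TINF2 bin in WT only (130 kb) and to the GMPR2 bin in STAG2-KD only (120 kb). The bin 24665001 to 24670000 was joined to the TINF2 bin in WT only (45 kb) and to the GMPR2 bin in STAG2-KD only (35 kb). DHRS1 and NOP9 were joined to the TINF2 bin in both lists (55 kb) and to the GMPR2 bin in STAG2-KD only (65 kb). The bins are 10 kb apart, and the lists hold no read counts with which the contacts of each could be compared in both states. Neither bin was joined to the on-grid IRF9 bin in either list.

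Among the anchors of member loops, only those at the IRF9 start held a strict core of the CTCF motif, the sequence at which cohesin is known to halt. The match lies on the minus strand at chr14:24630365-24630378, 65 bases before the first annotated IRF9 start at 24630443, and points away from the gene. Among 97 anchors in windows that reach 250 kb beyond both ends of each member gene, 5 held such a core. Of these, 2 were the overlapping on-grid and off-grid anchors at IRF9. The remaining 3 cores were on the plus strand, in the IRF9 window at CARMIL3 (chr14:24527663-24527676), in the IRF7 window at LMNTD2 (chr11:555072-555085) and in the IRF3 window at FLT3LG (chr19:49977407-49977420). All 4 are shown 5′ to 3′ on their own strand (GRCh37), with the core in capitals and 3 bases on either side, because they are the places in these windows where the orientation of a core can be compared.
IRF9: cggCCACTAGAGGGCAGcag
CARMIL3: tttCCACCAGAGGGCAGgag
LMNTD2: gggCCACCAGGGGGCAGcta
FLT3LG: tcaCCACCAGGGGGCGCgct
The core was found in 2.69% of WT anchors and 2.68% of STAG2-KD anchors, so most loops of the lists had none. Only exact matches counted, so an anchor without a match may still hold a CTCF site, and binding was not measured. No member loop had a core at both anchors. The CARMIL3 anchor carried 1 loop in WT and 0 in STAG2-KD, the LMNTD2 anchor 2 and 0, and the FLT3LG anchor 2 and 1.

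**Figure D3:**
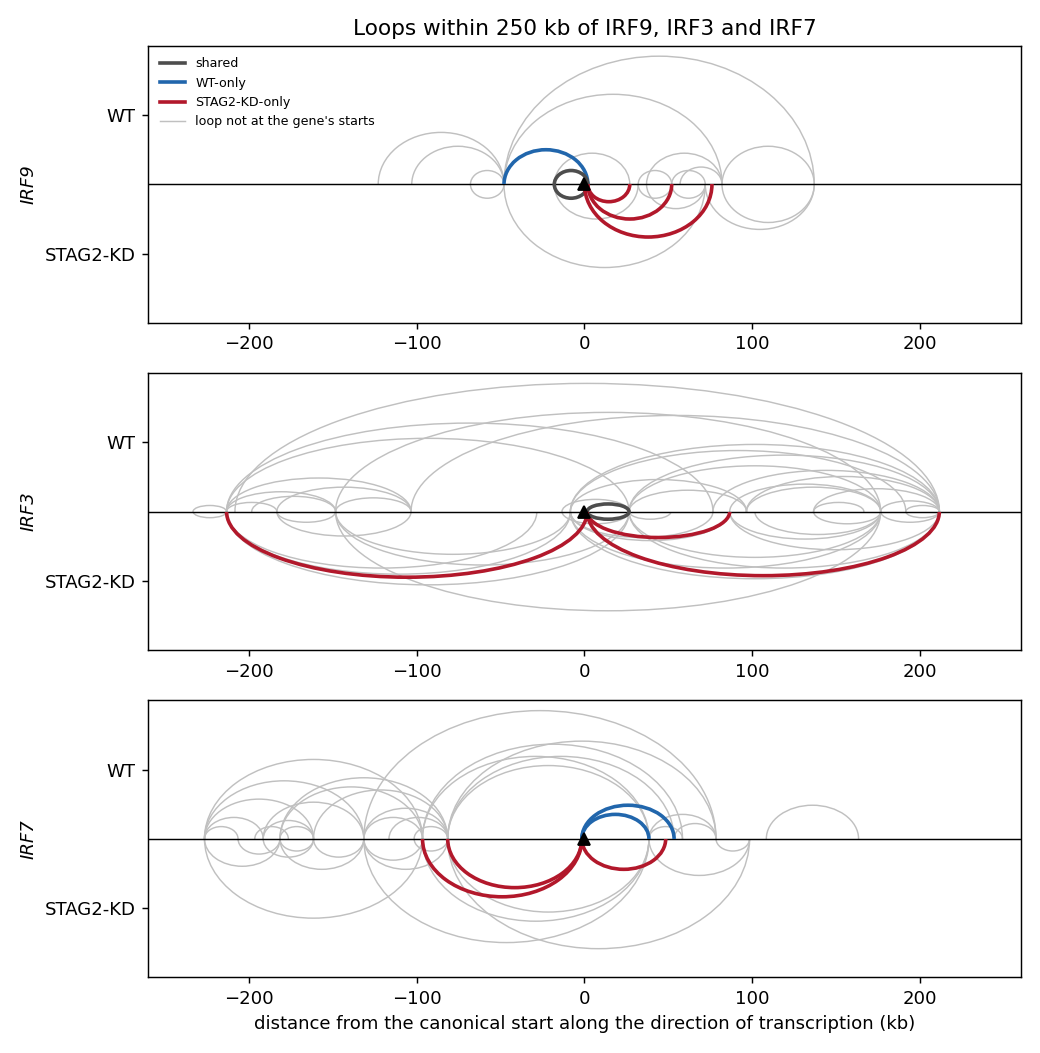
Loops within 250 kb of IRF9, IRF3 and IRF7, as arcs between anchor midpoints, against the distance in kb from the canonical start (triangle) along the direction of transcription, with WT loops above and STAG2-KD loops below the line. Coloured arcs are loops at the gene's starts, grey arcs are the other loops, and the STAG2-KD-only arcs lie downstream of IRF9 (25, 50 and 76 kb), on both sides of IRF3 and mostly upstream of IRF7 (80 and 95 kb).

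IRF3, the factor that starts the interferon response to foreign nucleic acids, showed the largest excess of STAG2-KD loops among the members. Its main start bin, chromosome 19, 50165001 to 50170000, holds 29 of its 31 transcript starts (ENSG00000126456, 50162826 to 50169132, minus strand) and a start of BCL2L12, a gene of the BCL2 family. The loops of IRF3 and BCL2L12 at this bin cannot be told apart. The shared loop ran 25 kb downstream to the start of RRAS, which encodes a Ras-related GTPase, and was the only loop in WT. The STAG2-KD-only loops ran 85, 210 and 215 kb, so that the median distance of the IRF3 loops in STAG2-KD was 147.5 kb.

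All 3 added partners of IRF3 were promoter anchors that the WT list also held. The partner at 85 kb had starts of NOSIP and PRRG2 and had 1 WT loop and 4 STAG2-KD loops. The partner at 210 kb had starts of ALDH16A1 and PIH1D1, the latter encoding part of a co-chaperone complex, and had 12 WT loops and 11 STAG2-KD loops. The partner at 215 kb, upstream, had starts of AKT1S1, an inhibitory subunit of the mTORC1 complex, and TBC1D17, and carried 9 and 8. The latter anchors were therefore busy in both lists.

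The bin 10 kb upstream of the IRF3 start bin, 50175001 to 50180000, with starts of BCL2L12 and of the arginine methyltransferase gene PRMT1, was joined to the same partners. Its loop to ALDH16A1 and PIH1D1 (220 kb) was shared, and its loops to NOSIP and PRRG2 (95 kb) and to the AKT1S1 bin (205 kb) were STAG2-KD-only. A WT-only loop of 105 kb joined this bin to the bin 50070001 to 50075000, which has no protein-coding start. When anchors within 2 bins counted as the same, that loop was the WT counterpart of the IRF3 loop of 85 kb, and the 220 kb loop was that of the IRF3 loop of 210 kb. The loop of 215 kb had none. BCL2L12, which has starts in both bins, had 4 WT loops and 10 STAG2-KD loops, 2 of them shared. With both anchors within 250 kb of the IRF3 starts, there were 28 loops in WT and 27 in STAG2-KD, and 12 were shared.

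IRF7, the interferon-inducible factor that amplifies the type I response, shared no loop between the lists. Among the 6024 genes with a loop in both lists, 21.1% shared none. All its loops used the bin 615001 to 620000 on chromosome 11, where 14 of its 17 transcripts start (ENSG00000185507, 612553 to 615983, minus strand). Both WT partners lay downstream. They were PHRF1 at 40 kb, an anchor with 5 loops in WT and 4 in STAG2-KD, and the bin of LMNTD2 and RASSF7 at 55 kb, with 3 in WT and 0 in STAG2-KD.

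Of the 3 STAG2-KD partners of IRF7, 2 lay upstream. The partner at 80 kb had starts of DEAF1, a transcription factor gene, and TMEM80, and had 8 WT loops and 5 STAG2-KD loops. The partner at 95 kb lay in an exon-containing bin of EPS8L2, whose protein regulates actin, and carried 5 and 4. The downstream partner, at 50 kb, was the bin 565001 to 570000, with the start of the microRNA gene MIR210 and its host MIR210HG but no protein-coding start. It was next to the LMNTD2 and RASSF7 bin of the WT loop, so that 1 of the 2 WT loops counted as shared within 1 bin, and both did within 2 bins. The exact exchange of partners at IRF7 therefore depended on the tolerance for the downstream loops and not for the upstream ones.

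The neighbourhood of IRF7 held fewer loops in STAG2-KD, with 28 in WT, 19 in STAG2-KD and 8 shared in the window. Of these, 6 WT and 4 STAG2-KD loops spanned the gene. The same anchors that IRF7 reached in STAG2-KD were joined to PHRF1 across the gene in both lists, at 120 kb for DEAF1 and 135 kb for EPS8L2. The bin of HRAS, the Ras oncogene, and LRRC56 was joined to LMNTD2 and RASSF7 (25 kb), PHRF1 (40 kb), DEAF1 (160 kb) and TALDO1 (210 kb) in WT only. In STAG2-KD its 1 loop within the window ran 20 kb to the bin 515001 to 520000, which was joined to PHRF1 (60 kb) and DEAF1 (180 kb) in STAG2-KD only.

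IRF2, the antagonist of IRF1, had the most loops of any member in each list and the only excess in WT. At least 11 loops in WT were found at 2.76% of genes with a loop, and at least 7 in STAG2-KD at 9.25%. The gene (ENSG00000168310, chromosome 4, 185306856 to 185395712, minus strand) has 23 annotated transcripts that start in 4 bins, of which 2 had loops. The canonical bin, 185395001 to 185400000, holds 20 of these starts and had 4 loops in each list, 3 of them shared. An internal bin, 185370001 to 185375000, holds the start of 1 protein-coding transcript and had 7 loops in WT and 3 in STAG2-KD, with all 3 of the latter shared. The difference at IRF2 thus lay at the internal start.

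The shared loops of IRF2 joined its starts to 4 places. From the canonical start they ran 55 kb upstream to the bin 185450001 to 185455000, 60 kb downstream to an exon-containing bin within the gene at 185335001 to 185340000 and 145 kb downstream to the bin 185250001 to 185255000. From the internal start they ran 80 kb to the same upstream bin, 35 kb to the same bin within the gene and 20 kb to the bin 185390001 to 185395000 beside the canonical start. The upstream and the 145 kb bins hold no gene start. They were joined to each other in both lists (200 kb) and carried 4 and 6 loops in WT and 3 and 6 in STAG2-KD.

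All 5 WT-only loops of IRF2 ended beyond the end of the gene, whereas the STAG2-KD-only loop ended inside it. The WT-only loops ran 75, 110, 120 and 185 kb from the internal start and 210 kb from the canonical start. The longest from each start met in the bin 185185001 to 185190000, which holds the start of the long noncoding RNA AC079080.1, 45117 bases from the nearest protein-coding start, that of the phosphodiesterase gene ENPP6. That bin had 4 WT loops and 1 STAG2-KD loop. The partner at 120 kb was the 185250001 bin, which the canonical start reached in both lists, and the partners at 75 and 110 kb, the latter at the noncoding gene LINC02363, had 1 loop in WT and 0 in STAG2-KD. The STAG2-KD-only loop ran 75 kb from the canonical start to the bin 185320001 to 185325000 within IRF2, which had no WT loop. No IRF2 loop had a protein-coding start of another gene at its partner anchor.

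**Figure D4:**
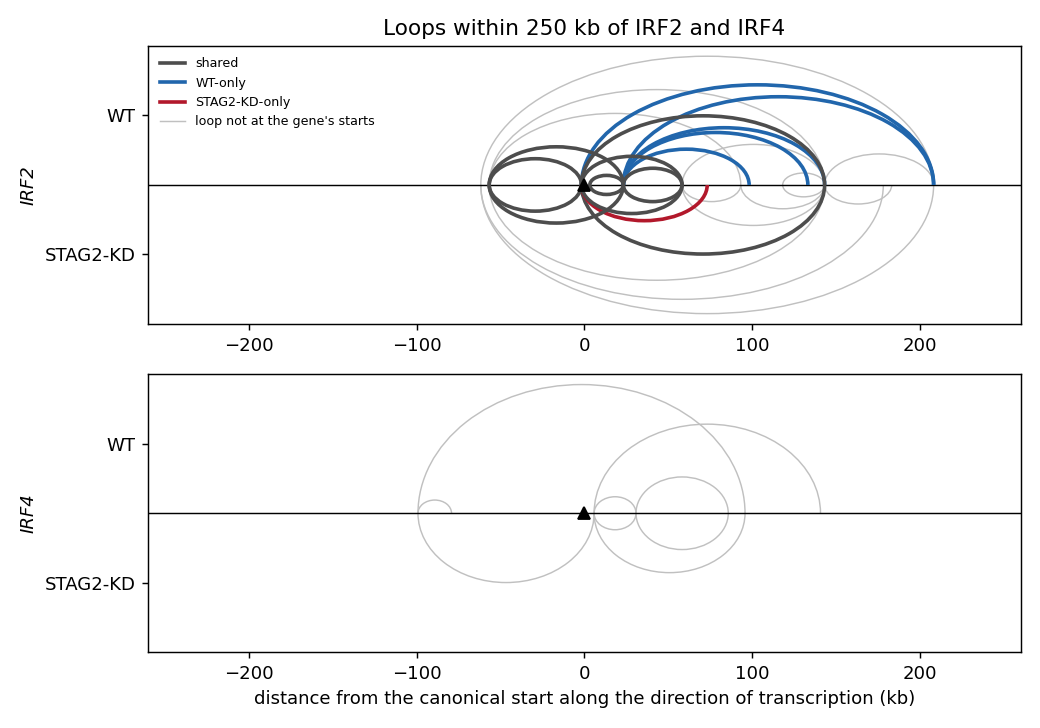
Loops within 250 kb of IRF2 and IRF4, drawn as arcs between anchor midpoints against the distance in kb from the canonical start (triangle) along the direction of transcription, with WT loops above and STAG2-KD loops below the line. The 5 WT-only arcs of IRF2 reach past 90 kb from the canonical start, the 6 shared arcs appear on both sides of the line, and 4 of the 7 loops drawn in grey around IRF4 leave from the bin next to its start.

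IRF4, the family member active in pigment cells, had no loop at its start but had loops from the next bin. Its 8 transcripts (ENSG00000137265, chromosome 6, 391739 to 411443, plus strand) begin in the bin 390001 to 395000, and the nearest anchor of either list began 3224 bases from a start. That anchor, 395001 to 400000, lies within the gene, contains exon sequence and had 2 WT loops and 3 STAG2-KD loops. The loop common to both lists reached the bin 420001 to 425000, at 25 kb. The loop found in WT only reached the bin 530001 to 535000, at 135 kb, in EXOC2, which encodes a subunit of the exocyst.

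The STAG2-KD-only loops of the IRF4 body ran 90 kb downstream to the bin 485001 to 490000, also in EXOC2, and 105 kb upstream to the start of DUSP22, a phosphatase gene. In WT these last anchors were joined directly, by a loop of 195 kb that spanned IRF4 and that the STAG2-KD list did not hold. The anchors on either side were thus the same, with a loop across the gene in the WT list and a loop from each to the gene in the STAG2-KD list. Counts of 1 loop each have no replicate check. The IRF4 promoter window in RefSeq (chr6:391502-391801) was 74.0% G and C with 32 CpG dinucleotides, and 82.8% of promoter windows had at most as many. The IRF9 window had 7 CpG, with 39.3% of windows at or below it.

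IRF5 and IRF8 lay apart from the loops of both lists. For IRF5 (ENSG00000128604, chromosome 7, 128577511 to 128590092) the nearest anchor lay 72511 bases from a start in WT and 57511 bases in STAG2-KD. Its window held 6 loops in WT and 7 in STAG2-KD, and 1 shared loop of 325 kb passed over the gene. For IRF8 (ENSG00000140968, chromosome 16, 85932722 to 85956212) the nearest anchor lay 77722 bases away in WT and 97722 in STAG2-KD. Its window held 3 loops in WT and 2 in STAG2-KD, all with an anchor at the bin of COX4I1 and EMC8, housekeeping genes of respiration and membrane insertion. No loop at a start was found for 10658 other protein-coding genes, which is 55.4% of those on chromosomes 1 to 22. A list without a loop at a gene does not show that the gene had no contacts or no acetylation, since the lists hold only loops that passed the caller.

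Over the 4 genes with loops, the shares of the complete lists lay inside the intervals of the members' shares. Shared loops made up 50.0% of the 16 WT loops (24.7 to 75.3, exact binomial interval at 95%) and 44.4% of the 18 loops in STAG2-KD (21.5 to 69.2). Over all loops the shares were 38.0% and 40.5%. Of the 8 shared loops, 6 belonged to IRF2. A tolerance of 2 bins gave a counterpart to 10 of 16 WT loops and to 11 of 18 in STAG2-KD. The private loops mostly used partners known to the other list. The partner anchor of 5 of the 8 WT-only loops occurred in the STAG2-KD list (62.5%, 24.5 to 91.5), and that of 7 of the 10 STAG2-KD-only loops occurred in the WT list (70.0%, 34.8 to 93.3). For all private loops seen from a protein-coding start these shares were 62.8% and 63.4%.

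The partners of IRF2 held no protein-coding start, unlike most partners of IRF3, IRF7 and IRF9. Over the 4 genes, a protein-coding start lay in the partner anchor of 5 of 16 WT loops (31.2%, 11.0 to 58.7) and 9 of 18 STAG2-KD loops (50.0%, 26.0 to 74.0). The same was true of 51.2% of all WT and 50.4% of all STAG2-KD loops seen from such a start. None of the partners so counted belonged to IRF2. With any annotated start within 5 kb of the partner anchor, 7 of the 11 WT loops and 3 of the 7 STAG2-KD loops of IRF2 counted as well, and the shares over the 4 genes became 75.0% and 77.8%. At IRF3, IRF7 and IRF9, all 5 WT loops and all but 2 of the STAG2-KD loops ran to a protein-coding start, the exceptions being the MIR210 and EPS8L2 bins of IRF7.

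The median distance of the members' loops was 57.5 kb in WT (20 to 210) and 67.5 kb in STAG2-KD (20 to 215), beside 90 kb and 85 kb for all loops. Shared member loops had a median of 45.0 kb, WT-only loops 92.5 kb and STAG2-KD-only loops 78.0 kb. The long WT-only loops were those of IRF2, and the long STAG2-KD-only loops were those of IRF3.

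The genes that act just before these factors, and others that bind or belong with them, were taken as a list of 34, of which 32 lie on chromosomes 1 to 22. Of these 32 genes, 18 had a loop at a start in WT, 18 in STAG2-KD and 20 in either list. Over all protein-coding genes the shares were 39.1%, 36.8% and 44.5%. Of the 20 genes with a loop, 9 had more loops in STAG2-KD, 7 had more in WT and 4 had equal numbers. For all genes with a loop these classes held 34.4%, 43.5% and 22.1%. The other 12 genes of the list had no loop at a start. The largest differences toward STAG2-KD were at IRF1, with 7 loops in WT and 13 in STAG2-KD, at IRF2BP2, a corepressor that binds IRF2, with 18 and 21, and at MAVS and STING1, adaptors of nucleic acid sensing, each with 3 and 5. The largest toward WT was at TYK2, a kinase of the interferon receptor, with 5 and 2. STAT2, which binds IRF9, had 7 and 8, and 5 of these were shared.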

How the data were processed

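Per the labels, H3K27ac HiChIP was performed on 4 samples of M14 cells, which were grouped by title. Per the study's methods, the authors digested chromatin with MboI, aligned reads to hg19 with HiC-Pro, used hichip-peaks for peaks and FitHiChIP for loops; versions are not given in the sources used here. The deposited lists, 1 per group, have 3 columns (chromosome, start of the left anchor, end of the right anchor) in base pairs and hold no counts, scores or q-values. A loop missing from a list may have fallen just short of the limit of the caller.

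Starts were read as counted from 0 and are printed counted from 1. Anchors were taken as 5 kb. Distances were measured between anchor midpoints. Transcript starts were from GENCODE release 44 lifted to GRCh37. Shares were given with exact Clopper-Pearson intervals at 95%. All protein-coding genes served as background. The CTCF core (14 positions of the consensus) and promoter motifs were searched by exact match on both strands; IRF2, IRF3 and IRF7 had no matching promoter entry. Python 3.11.15, numpy 2.4.6, scipy 1.17.1 and matplotlib 3.10.9 were used. The counting was tested on simulated data, in which the loop numbers of all 100 planted genes were recovered. The planted loops lay on the 5 kb grid, at 1 start of each gene, and the genes were far apart. Off-grid lines, bins shared by genes and loops at several starts of a gene were therefore not tested.

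The members, the gene lists and the choices of analysis were made with earlier results of these data known. Named genes are the members, genes with a start in a member's own bin or partner anchor (otherwise the gene covering it or the nearest start), up to 3 pathway genes with the largest difference in each direction (a tie for the third place toward STAG2-KD is named in full), and up to 3 genes within 1 Mb with the same numbers; ties of 1 loop among pathway genes are not named. Other genes at anchors around the members (such as HRAS, TALDO1, TINF2, CARMIL3, DHRS1, PRMT1, COX4I1 and STAT2) were named after their values were seen. Alternatives were other definitions of a start, tolerances of 1 and 2 bins, the first 50% of lines per chromosome, a limit of 1 Mb, loops per 10000 and the list without the off-grid line. Some genes at anchors or in the pathway list are not reported here by name.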

Additional observations from a re-analysis of the deposited data

How the results depend on the processing

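Of 173 values under alternatives in the unit of the result, over 33 results, 162 stayed within the interval of the reported value or within 1.5 times it, and 11 moved. Many of these values could not move. IRF5 and IRF8 had 0 loops under every alternative, and the off-grid line lies only in the STAG2-KD list. IRF9 had 3 STAG2-KD loops instead of 4 without that line, which counted as staying. The number that stayed is therefore no measure of robustness. A further 16 values scaled to loops per 10000 kept the order of the lists. Counting only Ensembl canonical starts, an alternative chosen after the loops at the internal IRF2 start had been seen, left 9 WT and 15 STAG2-KD loops at the members, and IRF2 had 4 in each list with 3 shared, because the internal start no longer counted. Counting any transcript start within 5 kb of the partner anchor raised the share of loops with a promoter partner to 75.0% in WT and 77.8% in STAG2-KD, because more starts qualify. Starts within 5 kb of an anchor gave IRF4 2 WT and 3 STAG2-KD loops, 1 of them shared. The tolerance gave IRF7 1 shared loop within 1 bin and 2 within 2 bins. Without the off-grid line the members had 17 STAG2-KD loops. A limit of 1 Mb removed no member loop and so tests nothing. Read depth is unknown. No paired analysis was possible because only 1 list per group was analysed, and no replicate could be left out.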
